A study of Mus musculus with 24 samples.

Results

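Of 40119 autosomal regions with enough Input reads to be judged, 862 (2.15%) held much less H3K9me2 than Input in both heart biopsies, the area at risk (AAR) and the remote myocardium (RM). The members were chosen from the measured counts. A region counted as eligible when it lay on an autosome and had a mean of at least 15 reads over the 12 Input libraries, and 40119 of the 53386 listed regions met this. It was called depleted when the mean log2 share of counts in H3K9me2 libraries minus that in Input libraries was -1 or less in AAR and also in RM. A further 569 eligible regions met the threshold in AAR alone and 988 in RM alone. The values that set this choice are given below as description, and nothing is drawn from them.

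The study took both biopsies from the same 6 mice of the C57BL6 strain, 3 females and 3 males aged 12 months. All 6 had undergone ischemic preconditioning, in which a coronary artery was closed for 5 min and reopened for 5 min, 4 times over, with a final 30 min of reperfusion. AAR is the myocardium supplied by the closed artery, and RM is myocardium of the same heart outside it, so both biopsies come from preconditioned animals. Each biopsy gave an H3K9me2 precipitate and its Input, the same digested chromatin without antibody, which makes 4 groups of 6 libraries (AAR H3K9me2, RM H3K9me2, AAR Input and RM Input). Sham hearts were not analysed here. No transcripts were measured, so the cell types in the biopsies could not be checked by marker levels.

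H3K9me2 is the dimethylated form of lysine 9 on histone H3, written mainly by the paired methyltransferases Ehmt1 and Ehmt2 (also called GLP and G9a). It spreads over broad domains of silent or weakly transcribed chromatin. Active genes usually carry little of it around their start sites, where CpG-rich DNA tends to stay unmethylated and histone H3 lysine 4 methylation is found instead. Transcription, DNA methylation and H3 lysine 4 methylation were not measured here. Most depleted regions held or lay near start sites, and 4 of the most depleted are shown first through the 250 bases before the start site (RefSeq, GRCm38.p6). Each is written 5′ to 3′ along the gene's own strand, with every CG in capitals. Zc3h4 (chr7:16400946-16401195, + strand) encodes a zinc finger protein of transcription termination, Midn (chr10:80149432-80149681, + strand) a protein that carries nuclear proteins to the proteasome, Actg1 (chr11:120348496-120348745, - strand) cytoplasmic gamma actin and Mbd6 (chr10:127288882-127289131, - strand) a methyl-CpG-binding domain protein.
Zc3h4: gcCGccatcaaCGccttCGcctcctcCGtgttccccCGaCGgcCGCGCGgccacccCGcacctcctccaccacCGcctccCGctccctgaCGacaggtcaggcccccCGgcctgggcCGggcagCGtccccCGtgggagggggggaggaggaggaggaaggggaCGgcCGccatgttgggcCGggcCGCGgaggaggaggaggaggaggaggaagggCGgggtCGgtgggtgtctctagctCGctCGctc
Midn: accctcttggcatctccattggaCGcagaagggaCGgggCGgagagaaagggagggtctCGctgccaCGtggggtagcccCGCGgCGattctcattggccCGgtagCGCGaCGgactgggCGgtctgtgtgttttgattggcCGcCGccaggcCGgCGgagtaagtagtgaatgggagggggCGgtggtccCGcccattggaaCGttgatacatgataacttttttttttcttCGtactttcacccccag
Actg1: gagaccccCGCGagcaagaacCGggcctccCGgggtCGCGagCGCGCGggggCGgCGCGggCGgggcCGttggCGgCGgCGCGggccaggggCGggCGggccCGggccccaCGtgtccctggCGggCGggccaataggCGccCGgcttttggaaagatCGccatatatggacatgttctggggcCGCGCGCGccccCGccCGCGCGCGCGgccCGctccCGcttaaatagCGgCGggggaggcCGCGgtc
Mbd6: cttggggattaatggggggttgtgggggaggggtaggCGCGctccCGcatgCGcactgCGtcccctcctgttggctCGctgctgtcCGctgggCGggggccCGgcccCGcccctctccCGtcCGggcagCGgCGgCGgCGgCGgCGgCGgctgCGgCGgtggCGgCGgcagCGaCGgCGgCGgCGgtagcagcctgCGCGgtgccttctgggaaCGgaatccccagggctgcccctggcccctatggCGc

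These 4 stretches hold 26, 21, 43 and 32 CG dinucleotides in the order printed. A pair of immediate early genes shows the same window in genes that cells switch on within minutes of a stimulus. Junb (chr8:84978749-84978998, - strand) encodes an AP-1 transcription factor and has 20 CG, and Zfp36 (chr7:28379229-28379478, - strand) encodes a factor that speeds mRNA decay and has 18 CG.
Junb: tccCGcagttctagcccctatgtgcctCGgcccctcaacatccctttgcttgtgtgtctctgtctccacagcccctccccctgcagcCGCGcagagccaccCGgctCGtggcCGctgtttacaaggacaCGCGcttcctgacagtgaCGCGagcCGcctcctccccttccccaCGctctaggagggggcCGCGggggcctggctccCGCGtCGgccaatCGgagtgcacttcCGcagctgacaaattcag
Zfp36: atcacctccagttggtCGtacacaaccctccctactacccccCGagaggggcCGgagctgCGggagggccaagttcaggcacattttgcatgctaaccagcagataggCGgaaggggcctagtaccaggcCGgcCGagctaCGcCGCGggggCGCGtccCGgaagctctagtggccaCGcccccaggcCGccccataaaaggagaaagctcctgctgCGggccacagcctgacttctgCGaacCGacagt
For contrast, Tnnc1 (chr14:31208062-31208311, + strand), which encodes cardiac troponin C, was depleted although the window holds 0 CG, the fewest among depleted start sites. The start-site region with the highest H3K9me2 over Input belonged to 4933402J07Rik (chr8:87563657-87563906, + strand), which is no member and whose window holds 2 CG.
Tnnc1: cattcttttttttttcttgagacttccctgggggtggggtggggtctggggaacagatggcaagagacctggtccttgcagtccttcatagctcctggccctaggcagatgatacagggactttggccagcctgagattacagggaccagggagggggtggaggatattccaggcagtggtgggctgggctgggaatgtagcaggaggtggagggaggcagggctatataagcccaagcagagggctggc
4933402J07Rik: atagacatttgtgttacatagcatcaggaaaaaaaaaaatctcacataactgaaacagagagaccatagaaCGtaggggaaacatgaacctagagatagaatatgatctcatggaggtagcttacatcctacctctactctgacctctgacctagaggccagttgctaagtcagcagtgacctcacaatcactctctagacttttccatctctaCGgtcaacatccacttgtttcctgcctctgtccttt

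The 862 regions took up a much smaller part of the H3K9me2 libraries than of the Inputs. They held 0.866% ± 0.156 of all counts in AAR H3K9me2 and 2.13% ± 0.159 in AAR Input (SD, n = 6 each). In RM they held 0.846% ± 0.115 of the H3K9me2 counts and 2.18% ± 0.10 of the Input counts (SD, n = 6 each). No H3K9me2 library overlapped any Input library in this share, which the choice of members fixes. Library totals ran from 416683 to 1196368 counts in AAR H3K9me2, from 443261 to 981763 in RM H3K9me2, from 1286383 to 2478668 in AAR Input and from 1405503 to 1770520 in RM Input. The median depleted region therefore had only 3 to 13 reads per AAR H3K9me2 library and 4 to 10 per RM H3K9me2 library, against 25 to 58 per AAR Input library and 30 to 40 per RM Input library. A mean below 10 reads over the 12 H3K9me2 libraries was seen in 689 members (79.9%). Lower is meant relative to the other listed regions throughout, and in whole biopsies fewer cells with the mark and less mark per cell cannot be told apart.

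**Figure D1:**
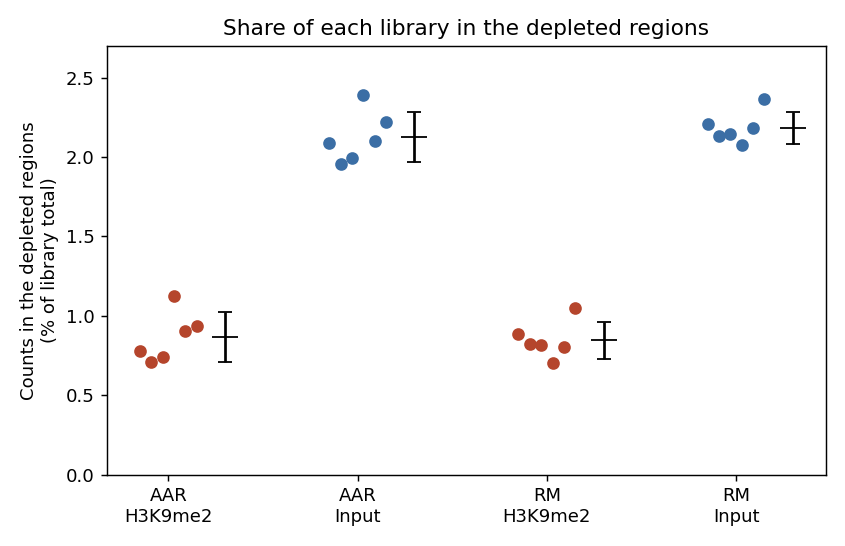
Counts in the 862 depleted regions as a percentage of each library's total, for the 4 groups on the x axis. Each dot is 1 of 6 mice and the bar to its right is the mean ± SD; H3K9me2 libraries lie between 0.701% and 1.13%, and Input libraries between 1.96% and 2.39%.

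The depth of depletion is given for each biopsy as a description. The rule set the same limit of -1 in both, so a like depth in AAR and RM partly follows from it. The median log2 difference of H3K9me2 minus Input was -1.26 in AAR and -1.33 in RM over the members, and 0.02 in AAR and 0.01 in RM over the 39257 other eligible regions. Mouse by mouse, the median over the members ran from -1.40 to -1.13 in AAR and from -1.54 to -1.15 in RM. The same animal, mouse 23, had the shallowest AAR median and the deepest RM median. The difference was below 0 in all 6 mice for 767 members in AAR and for 796 in RM. In 625 members (72.5%) every AAR H3K9me2 library lay below every AAR Input library, and 5.92% of all eligible regions did so. In RM the same held for 678 members (78.7%) and for 8.74% of all eligible regions. Both shares follow from the rule.

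The members differed from each other mainly in depth. Both biopsies were at -1.5 or less in 128 members and at -2 or less in 8. AAR was the lower biopsy in 366 members and RM in 496, and the biopsies differed by more than 0.5 in 129 and by more than 1 in 11. By the mean of both biopsies, 201 members lay between -2 and -1.5 and 333 above -1.25. Start sites were held by 65.3% of the first class and by 55.7% of the second, members on chromosome 18 left out of both shares. Deeper members were narrower and thinner in reads, with a median width of 1800 bases and a median of 3.25 H3K9me2 reads at -2 or less, against 2600 bases and 7.58 reads above -1.25.

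**Figure D2:**
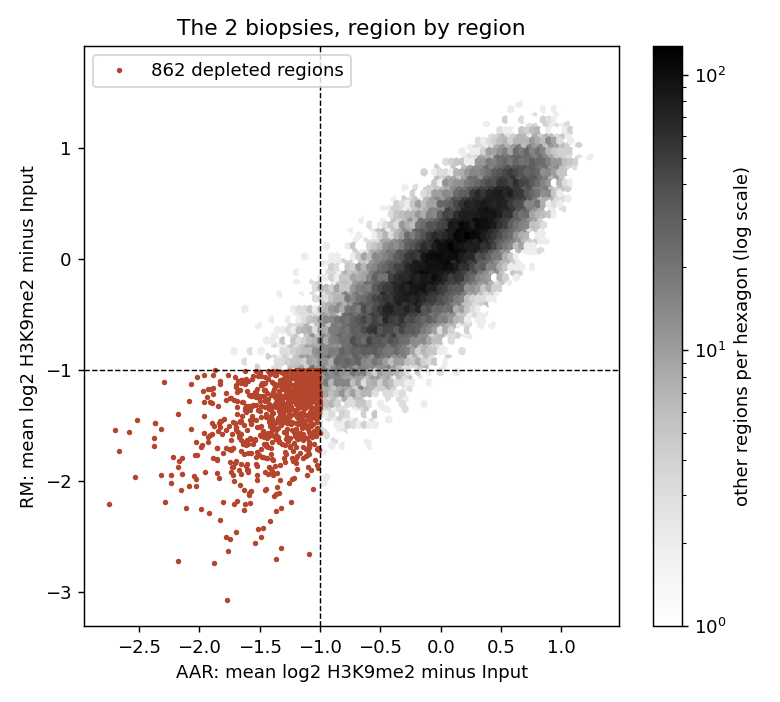
Mean log2 H3K9me2 minus Input of each eligible region in AAR (x axis) and RM (y axis). Red points are the 862 depleted regions, grey hexagons count the other 39257 on a log scale, and the dashed lines mark the threshold of -1; the members form the lower left tail of 1 continuous cloud.

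The deepest members are given one by one. The region at Nufip2 (chr11:77686200-77687799), which encodes an RNA-binding partner of FMRP, had the lowest mean of both biopsies. Nufip2 ran from 0 to 8.36 CPM, its count scaled to the library's total over all listed regions, with a median of 1.74 in AAR H3K9me2, and from 12.8 to 19.8 with a median of 15.7 in AAR Input. In RM, Nufip2 ran from 1.25 to 6.77 CPM with a median of 4.51 in H3K9me2, and from 13.0 to 23.7 with a median of 20.3 in Input. The H3K9me2 libraries stayed below the Inputs in both biopsies, and the log2 difference was -2.75 in AAR and -2.21 in RM.

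Egr1 (chr18:34860400-34863199), an immediate early transcription factor gene, came second. Its H3K9me2 ran from 0 to 4.18 CPM with a median of 2.87 in AAR and from 0 to 4.99 with a median of 1.13 in RM. Its Input ran from 7.77 to 17.6 CPM with a median of 10.4 in AAR and from 7.23 to 14.8 with a median of 10.4 in RM. No H3K9me2 library reached an Input library, and the log2 difference was -2.18 in AAR and -2.73 in RM. In each biopsy at least 1 H3K9me2 library was at 0 counts here, so the size of the difference leans on the 0.5 added to each count.

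Midn held 2 of the 12 deepest members and rested on more reads. In the region around the Midn start (chr10:80146200-80152599), AAR H3K9me2 ran from 10.03 to 19.2 CPM with a median of 13.8, and AAR Input from 42.1 to 59.7 with a median of 53.2. RM H3K9me2 there ran from 3.74 to 16.3 CPM with a median of 8.73, and RM Input from 56.2 to 76.1 with a median of 62.9. The log2 difference was -1.88 in AAR and -2.75 in RM at the start, and -2.53 in AAR and -1.96 in RM in the Midn region downstream (chr10:80156200-80161999). The groups were far apart in every library, and which biopsy was lower changed between the regions of the same gene. The start region also reaches Atp5d, which encodes a subunit of ATP synthase.

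Actg1 and Brd2 were the other regions of this group with the most Input reads. At Actg1 (chr11:120346400-120352799), H3K9me2 ran from 0 to 11.7 CPM with a median of 9.69 in AAR and from 2.26 to 15.3 with a median of 5.91 in RM. Actg1 Input ran from 28.5 to 35.8 CPM with a median of 31.3 in AAR and from 26.6 to 34.9 with a median of 31.4 in RM. Brd2 (chr17:34119600-34123199) encodes a reader of acetylated histones, and the same region reaches the antigen-presentation gene H2-DMa. Its H3K9me2 ran from 4.00 to 15.05 CPM with a median of 11.2 in AAR and from 4.37 to 9.17 with a median of 8.10 in RM. Brd2 Input ran from 24.1 to 43.6 CPM with a median of 35.4 in AAR and from 38.5 to 50.5 with a median of 44.4 in RM. In neither region did an H3K9me2 library reach an Input library.

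The remaining deep members were Zc3h4 at -1.77 in AAR and -3.07 in RM, and Mbd6 at -2.67 in AAR and -1.74 in RM. Cdkn1a, which encodes the cell cycle inhibitor p21, stood at -1.77 in AAR and -2.63 in RM. Tob2, an antiproliferative gene, stood at -2.11 in AAR and -2.24 in RM. Sik1, a salt-inducible kinase gene, stood at -1.78 in AAR and -2.51 in RM, and Zc3h10, which encodes a zinc finger protein, at -2.32 in AAR and -1.95 in RM. Each of the 12 deepest members was below 0 in 6 of 6 mice in both biopsies. At least 1 H3K9me2 library was at 0 counts in AAR at Nufip2, Actg1 and Zc3h10. In RM this held for Zc3h4, Cdkn1a, Tob2 and Sik1, and in both biopsies for Mbd6. As at Egr1, the size of these differences leans on the 0.5 added to each count.

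The threshold cut through a continuous range. Just inside it lay Tmem184b (-1.0 in AAR and -1.34 in RM), Sdhc (-1.07 in AAR and -1.0 in RM) and Agpat2 (-1.87 in AAR and -1.0 in RM). Just outside lay Spen (-1.21 in AAR and -0.999 in RM), Rpl17 (-1.57 in AAR and -0.999 in RM) and Men1 (-0.999 in AAR and -1.73 in RM).

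Gene ends held most of the depleted regions. A region was placed at a gene end when an end of a gene lay inside it or up to 2 kb away, by the RefSeq table of GRCm38.p6, which gives no strand. By this, 722 members (83.8%) lay at a gene end, against 36.8% of the other eligible regions. Gene bodies held 115 members (13.3%), against 46.2% of the others, and 25 members (2.90%) were intergenic, against 17.0% of the others. No test was made of such shares, since regions of the same libraries are not replicates.

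Start sites of known strand were counted separately. The table of start sites leaves out chromosome 18 and covers 81.8% of the protein-coding genes outside it, so 847 members could be placed. A start site lay inside 505 of them (59.6%), against 13.1% of the other eligible regions, and 626 (73.9%) held one or lay within 2 kb of one, against 21.4% of the others. Starts on both strands were held by 112 members (13.2%), against 1.85% of the others, an arrangement that includes divergent gene pairs. Farther than 10 kb from any listed start lay 147 members (17.4%), against 53.2% of the others. Among all eligible regions, the share called depleted was 9.12% where a start site was held, 3.69% within 2 kb, 0.755% from 2 to 10 kb, 0.640% from 10 to 50 kb and 0.928% beyond 50 kb.

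The depleted start sites were CpG rich. Over the 250 bases before the start, the 761 start sites inside members had a median CpG observed-over-expected ratio of 0.809, against 0.631 for 6595 start sites in other eligible regions and 0.373 for all 32851 in the table. They held a median of 21 CG, against 13 in other eligible regions and 6 over the whole table. A ratio of at least 0.6 was reached by 78.8% of them, against 53.0% of those in other eligible regions and 34.0% of the whole table. Among regions with a start site, the share called depleted was 1.73% in the lowest of 4 equal bins of the ratio, 6.07% in the second, 12.7% in the third and 16.0% in the highest. The median log2 difference over all regions of these bins was 0.00, -0.27, -0.50 and -0.64 in AAR, and -0.01, -0.33, -0.55 and -0.69 in RM, in the same order. GC content moved with it, at a median of 66.4% in the depleted start sites and 60.0% in those of other eligible regions. Its part in the H3K9me2 and Input counts was not tested.

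**Figure D3:**
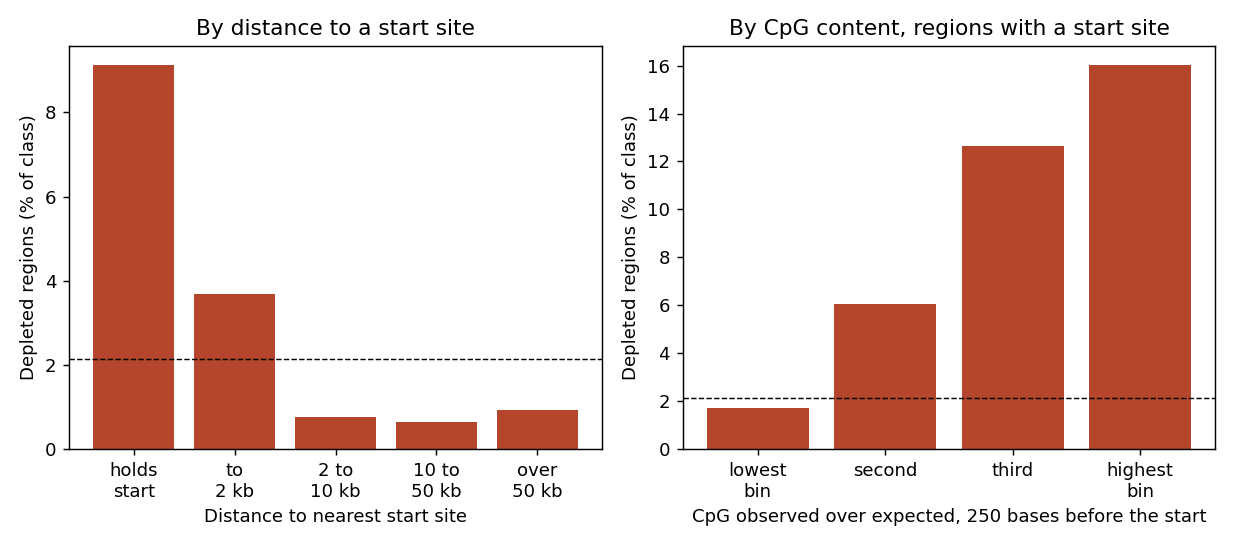
Percentage of eligible regions called depleted, by distance to the nearest start site (left) and, for regions that hold a start site, in 4 equal bins of the CpG observed-over-expected ratio (right). The dashed line is the share over all eligible regions, 2.15%; the share is 9.12% where a start site is held and reaches 16.0% in the CpG-richest bin.

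Short motifs were counted on both strands of the same 250 bases. GGGCGG, the core bound by Sp1-type factors, stood before 71.0% of the depleted start sites, 51.8% of those in other eligible regions and 32.7% of all in the table. It shares letters with GC-rich DNA as such. CCGGAAG, the core of ETS-type sites, was found before 14.5%, 9.70% and 6.91% of the same 3 sets, and TGACGTCA, the cyclic AMP response element, before 3.29%, 1.91% and 1.55%. The palindromic NRF1 motif was found before 1.84%, 1.02% and 0.782%. TATAAA was less frequent, at 4.47%, 5.78% and 12.4%, while CCAAT (31.5%, 30.2% and 33.8%) and the AP-1 core TGANTCA (4.47%, 4.66% and 6.75%) differed little between the first 2 sets. A match is a run of letters in this window and no measured site.

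The members were slightly narrower than the rest. Their median width was 2400 bases (quartiles 1800 and 3800), against 2800 bases (quartiles 2000 and 3600) for the other eligible regions, and together they covered 2.68 Mb. Both ends of the width range held more of them. The share called depleted was 7.57% of regions up to 1 kb, 2.91% from 1.2 to 2 kb, 1.54% from 2.2 to 4 kb, 2.46% from 4.2 to 8 kb and 5.14% above 8 kb. A region up to 1 kb reached the minimum of Input reads only with more Input per kb than the median of the other eligible regions. High Input lowers the difference of H3K9me2 minus Input. The share at the narrow end may thus partly follow from the minimum, and this was not tested. Start sites were held at like rates in all width classes, from 52.9% above 8 kb to 60.7% at 2.2 to 4 kb. Input coverage per kb had a median of 15.8 reads in the members and 14.2 in the others. Another listed region overlapped 27.8% of the members and 21.5% of the others, and the 622 members that stood alone had medians of -1.27 in AAR and -1.33 in RM.

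The widest members were regions of Nfic (12800 bases, a nuclear factor I gene, -1.96 in AAR and -1.41 in RM), Efna1 (12400 bases, an ephrin ligand gene, -1.13 in AAR and -1.14 in RM) and Tns2 (12200 bases, a focal adhesion gene, -1.5 in AAR and -1.52 in RM). Each of these overlaps another listed region, and the Nfic region had a mean of only 40.2 Input reads. Overlapping members had a median width of 4000 bases and 9.23 Input reads per kb. Members that stood alone had 2200 bases and 16.7 reads. Among the narrowest were regions of Iws1 (600 bases, a transcription elongation factor gene, -1.41 in AAR and -1.76 in RM) and Spast (800 bases, a microtubule-severing ATPase gene, -1.62 in AAR and -1.87 in RM). The 25 intergenic members lay between 2697 and 45431 bases from the nearest gene, with a median of 6337. The most remote was nearest to Rbx1, a ubiquitin ligase subunit gene, at -1.08 in AAR and -1.5 in RM. The next were near D130051D11Rik, 29276 bases away, and near Gm32806, 22204 bases away.

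Depleted regions were unevenly spread and partly came in runs. The share of eligible regions called depleted was highest on chromosome 19 (56 regions, 4.52%), chromosome 10 (70 regions, 4.27%) and chromosome 11 (126 regions, 3.18%), and lowest on chromosome 6 (19 regions, 0.963%). Members whose starts lay under 100 kb from the next were joined into clusters, and 456 members stood alone. The largest cluster covered 613.6 kb of chromosome 10 (chr10:79681800-80295399) with 20 depleted of 94 eligible regions. It runs from the ubiquitin-conjugating enzyme gene Cdc34 through the splicing regulator gene Ptbp1, the kinase gene Stk11, Midn and the cold-inducible RNA-binding protein gene Cirbp to the ribosomal protein gene Rps15. Its regions that were not depleted had medians of -0.56 in AAR and -0.60 in RM.

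The second largest cluster lay on chromosome 19 (chr19:5687200-5925999), with 12 depleted of 36 eligible regions over 238.8 kb. It holds the genes of Malat1 and Neat1, abundant nuclear lncRNAs of nuclear speckles and paraspeckles. Neat1 had 3 depleted of 4 eligible regions and Malat1 had 1 of 2. The third lay on chromosome 1 (chr1:73903000-74069799), with 9 depleted of 27 eligible regions over 166.8 kb. It is mostly 1 gene, Tns1, which encodes the focal adhesion protein tensin. Tns1 had 8 depleted of 35 eligible regions, more than any other gene, with values over all 35 from -1.61 to 0.13 in AAR and from -1.88 to -0.14 in RM. In the first cluster Midn was depleted in all 4 of its eligible regions, from -2.53 to -1.62 in AAR and from -2.75 to -1.93 in RM. Ahdc1 was depleted in 5 of its 9 eligible regions.

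Regions next to the members were also low in H3K9me2 against Input. The nearest eligible region on each side within 50 kb was taken as the neighbour, which gave 1467 regions, and 179 of these (12.2%) were depleted themselves. The 1288 that were not had a median log2 difference of -0.40 in AAR and -0.44 in RM, against 0.02 in AAR and 0.01 in RM for all eligible regions that are no members. Eligible regions that hold a start site, members included, had medians of -0.36 in AAR and -0.41 in RM. Neighbours were not matched to other regions on distance to start sites, so low values are not particular to them. The neighbour median was below 0 in every mouse, from -0.46 to -0.24 in AAR and from -0.54 to -0.35 in RM. With the 179 kept in, the medians were -0.47 in AAR and -0.54 in RM. The values come from the same libraries as those that chose the members. With neighbours that overlap no listed region the medians were -0.31 in AAR and -0.32 in RM.

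The depletion of neighbours was weaker at wider gaps. The median of regions that were not depleted was -0.61 in AAR and -0.68 in RM at gaps up to 2 kb, where 20% were depleted too. It was -0.42 in AAR and -0.48 in RM at 5 to 10 kb, and -0.25 in AAR and -0.28 in RM at 20 to 50 kb. From 50 to 200 kb it was 0.03 in AAR and 0.04 in RM, and 2.00% were depleted, close to the 2.15% over all eligible regions. Only the 5 nearest eligible regions on each side of a member were taken, and a region could enter several classes. Regions at gaps above 50 kb thus come from places where eligible regions are sparse, so the classes may differ in more than distance. Where a member held starts of a single strand, the neighbour downstream of the gene's start had a median of -0.43 in AAR and -0.47 in RM, and the neighbour upstream had -0.25 in AAR and -0.26 in RM. That contrast is given as a description.

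**Figure D4:**
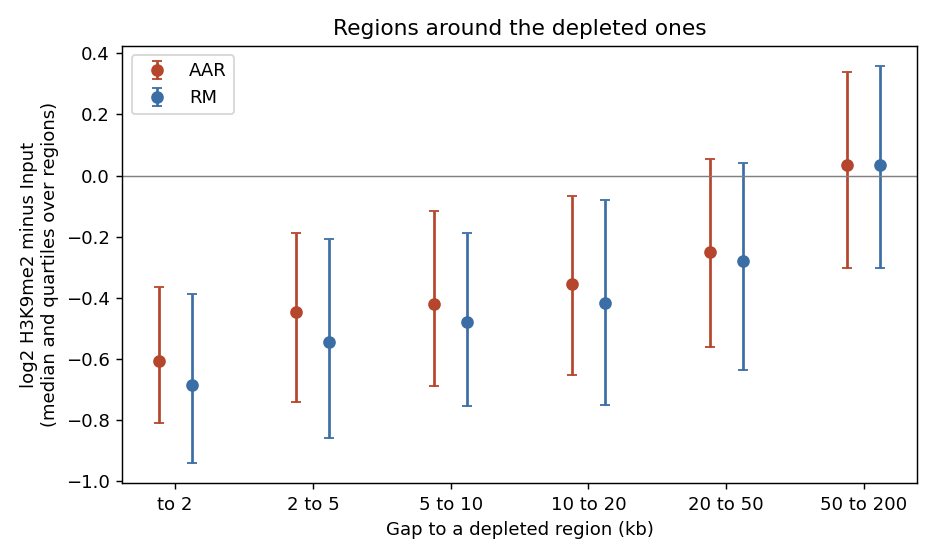
Median log2 H3K9me2 minus Input of eligible regions that are not depleted themselves, by the gap in kb to a depleted region, for AAR (red) and RM (blue). Only the 5 nearest eligible regions on each side of a member enter, so the widest gaps come from places where eligible regions are sparse. Bars span the quartiles over regions; the median is -0.61 in AAR and -0.68 in RM within 2 kb, and 0.03 in AAR and 0.04 in RM at 50 to 200 kb.

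Edges differed from member to member. For 481 members flanked on both sides by regions that were not depleted, the neighbours' mean was set against the member's. It was higher by a median of 0.94 on the log2 scale (quartiles 0.62 and 1.28), and higher in 478 members. The rule largely fixes this direction, since members are at -1 or less in both biopsies and these neighbours are not. The steepest edges were at Pabpc1, the poly(A)-binding protein gene (member mean -2.02, neighbour mean 0.29), at the lncRNA gene Gm34296 (member mean -2.13, neighbour mean 0.13) and at Actg1 (member mean -2.24, neighbour mean -0.02). The shallowest were at Cisd3, Fam102a and Tns1, where the neighbours' mean was slightly lower than the member's own, at -1.15, -1.14 and -1.07.

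Genes with a depleted region within 2 kb numbered 1160 of the 15722 genes with an eligible region (7.38%). The share was 8.53% of protein-coding genes (980 of 11485) and 4.25% of lncRNA genes (180 of 4237), and 116 genes had at least 2 depleted regions. Gene lists chosen with earlier results of these data known are described next by the share of their genes with an eligible region that had a depleted one, beside the 8.53% of all protein-coding genes.

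Immediate early and stress response genes had the highest share, 24 of 42. The AP-1 genes Jund (-1.92 in AAR and -2.29 in RM), Junb (-1.60 in AAR and -1.85 in RM) and Fosb (-1.26 in AAR and -1.44 in RM) were among them. So were the phosphatase gene Dusp1 (-1.39 in AAR and -1.95 in RM), the mRNA decay factor gene Zfp36 (-2.23 in AAR and -1.94 in RM), the repressor gene Klf10 (-2.58 in AAR and -1.56 in RM) and the nuclear receptor genes Nr4a1, Nr4a2 and Nr4a3. Over all 72 eligible regions of the list the median was -0.82 in AAR and -0.84 in RM, against -0.09 in AAR and -0.10 in RM over regions of all protein-coding genes.

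Genes that handle RNA and chromatin came next by genes, though not all by regions. Of the regions of each list, 26.1% were depleted for RNA binding and splicing and 10.6% for chromatin regulators. The share was 19.6% for proteasome and ubiquitin, 17.2% for oxidative phosphorylation, 15.3% for ribosomal proteins and 12.1% for cytoskeleton and glycolysis. It was 8.96% for translation factors and 5.35% for mitogen and kinase signalling, beside 2.67% of the regions of all protein-coding genes. Of all eligible regions that hold a start site, 9.12% were depleted, and the lists were not matched on start sites. RNA binding and splicing genes had 16 of 37, among them the heterogeneous nuclear ribonucleoprotein genes Hnrnpl (-1.83 in AAR and -2.36 in RM) and Hnrnph1 (-1.66 in AAR and -2.04 in RM) and 4 SR splicing factor genes, Srsf1, Srsf2, Srsf4 and Srsf7. Chromatin regulators had 19 of 48, including the histone demethylase gene Kdm6b (-2.22 in AAR and -1.79 in RM) and the histone H3 lysine 79 methyltransferase gene Dot1l (-1.89 in AAR and -1.57 in RM), each with 3 depleted regions. The genes of the enzymes that write H3K9me2 were not depleted by the rule. Ehmt2 had 2 eligible regions between -0.70 and -0.53 in AAR and between -0.72 and -0.52 in RM, and Ehmt1 had 1, at -0.48 in AAR and -1.04 in RM.

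Housekeeping lists lay between in the share of genes. Cytoskeleton and glycolysis genes had 7 of 23, including Gapdh (-1.86 in AAR and -1.70 in RM) and Tuba1b (-1.49 in AAR and -2.51 in RM). Nuclear subunits of oxidative phosphorylation had 10 of 36, including Cox4i1 of cytochrome c oxidase (-1.51 in AAR and -2.44 in RM) and Atp5b of ATP synthase (-1.70 in AAR and -1.51 in RM). Cytoplasmic ribosomal proteins had 12 of 49, including Rps6 (-1.51 in AAR and -1.36 in RM). Proteasome and ubiquitin genes had 8 of 29, translation factors 6 of 23, and mitogen and kinase signalling 12 of 43, including the kinase genes Gsk3b (-1.93 in AAR and -1.60 in RM) and Akt1 (-1.17 in AAR and -1.15 in RM). Rps2 and Ndufb10 share a region, so the lists are not fully separate.

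Heart genes had lower shares by genes than the lists above, beside the 8.53% of all protein-coding genes. They were 10% for sarcomere, 18.2% for calcium handling and 20% for cardiac transcription factor genes. By regions the shares were 5.26%, 3.92% and 6.76% in the same order, beside 2.67% for all protein-coding genes. The medians over all eligible regions of these lists were -0.19, 0.06 and -0.12 in AAR, and -0.16, 0.14 and -0.10 in RM. Genes with many eligible regions have more occasions to hold a depleted one. Sarcomere genes had 2 of 20, Tnnc1 (-1.18 in AAR and -1.01 in RM) and the atrial myosin light chain gene Myl4 (-1.06 in AAR and -1.34 in RM). Calcium handling genes had 2 of 11, the calcium pump gene Atp2a2 (-1.61 in AAR and -1.90 in RM) and the calmodulin gene Calm3 (-1.18 in AAR and -1.27 in RM). Cardiac transcription factors had 6 of 30, among them Srf (-2.29 in AAR and -1.11 in RM) and 3 nuclear factor I genes, Nfib, Nfic and Nfix. Of markers of other cell types, endothelial and mural genes had 2 of 20 (Flt1 and Fli1), immune genes 1 of 11 (H2-DMa, through the Brd2 region) and fibroblast genes 0 of 9. These small counts moved with single animals: sarcomere genes had 1 without mouse 17, 19 or 23 and 0 without mouse 27, and endothelial and mural genes had 1 without mouse 22 or 27 and 3 without mouse 30. Neuronal genes had 0 of 6, germ line genes 0 of 7 and Hox genes 0 of 37, or 1 without mouse 23 or 27. Hox genes set position along the embryo's axis, and their 50 eligible regions had medians of -0.24 in AAR and -0.15 in RM.

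**Figure D5:**
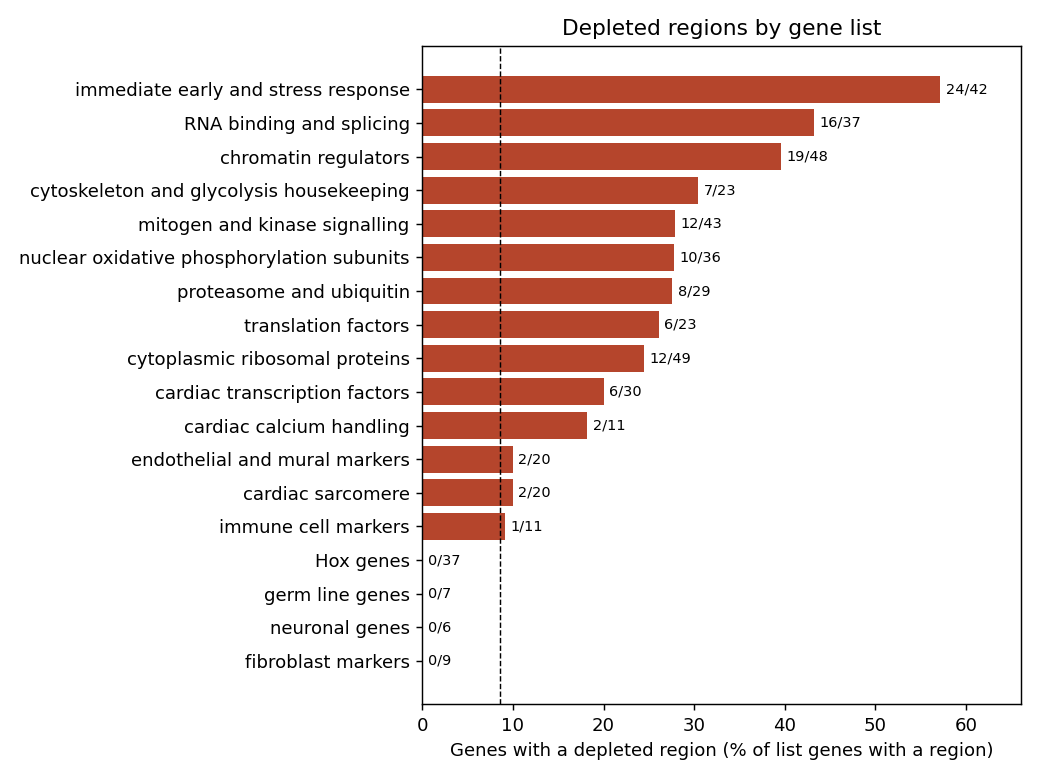
Percentage of the genes of each list with an eligible region that had a depleted region within 2 kb, with the counts beside each bar. The dashed line is the share over all protein-coding genes, 8.53%; immediate early and stress response genes stand highest at 24 of 42, and 4 lists stand at 0.

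A few members overlapped microRNA genes. Hairpins lay in 18 members (2.09%), against 0.583% of all eligible regions, and numbered 23. A member at Zswim4 on chromosome 8 held the hairpins of mir-23a, mir-27a and mir-24-2, a cluster studied in cardiac growth and in vessels, at -1.57 in AAR and -1.48 in RM. A member at Hic1 on chromosome 11 held mir-212 and mir-132, studied in cardiomyocyte hypertrophy, at -1.06 in AAR and -1.13 in RM. Some of the mature sequences (RefSeq, GRCm38.p6) are given with the seed, bases 2 to 8, in capitals. miR-212-3p and miR-132-3p share the seed AACAGUC, and the 3 mature forms printed from the chromosome 8 member have 3 different seeds. Other mature forms of both members, among them those of the mir-3074-2 hairpin on chromosome 8, are not printed.
mmu-miR-23a-3p: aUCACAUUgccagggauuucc
mmu-miR-27a-3p: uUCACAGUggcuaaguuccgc
mmu-miR-24-3p: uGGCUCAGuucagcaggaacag
mmu-miR-212-3p: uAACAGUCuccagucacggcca
mmu-miR-132-3p: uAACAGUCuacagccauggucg

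The biopsies were compared within the members by contrasts on which the rule set no threshold. The rule drew on the same libraries, so these contrasts are not independent of the choice of members. H3K9me2 of AAR against RM was tested with edgeR's quasi-likelihood test over 31526 regions with Benjamini-Hochberg adjustment. It called 0 regions at an adjusted p of 0.05 (0%), hence 0 members. The filter on low counts left only 147 members in this fit, which had to be well covered, and 3 of them had an unadjusted p under 0.05 beside 4% of all tested regions. All 3 were higher in AAR. Their number was 6, 7, 9, 2 and 6 without mouse 17, 19, 22, 27 and 30, all higher in AAR, and without mouse 23 it was 2, both lower in AAR. Without the filter, all 862 were fitted, 0 were called, and 20 had an unadjusted p under 0.05, 19 of them higher in AAR. That is 2.32% of the members, beside 4.12% of all regions in the fit without the filter. DESeq2 also called 0 and had 2 members under 0.05. The median standard error of the log2 fold change without the filter was 0.35 per member, so differences of that order were not detectable in single regions.

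Among the filtered members, Amotl2 (an angiomotin family gene of cell junctions) had the smallest p. Its H3K9me2 ran from 23.0 to 35.6 CPM with a median of 28.2 in AAR, and from 11.3 to 26.5 with a median of 21.5 in RM. The groups overlapped, and AAR was higher in 6 of 6 mice (log2 fold change 0.46, SE 0.21, edgeR unadjusted p = 0.0279, adjusted p = 0.999). Kmt2d, a histone H3 lysine 4 methyltransferase gene, ran from 12.0 to 27.6 CPM with a median of 17.3 in AAR and from 7.74 to 23.4 with a median of 11.4 in RM, and was higher in AAR in 5 of 6 mice. The log2 fold change was 0.56 (SE 0.26, adjusted p = 0.999). The third, the region of the sphingosine kinase gene Sphk2, ran from 28.8 to 61.9 CPM with a median of 34.6 in AAR and from 27.4 to 43.8 with a median of 31.7 in RM. Its log2 fold change was 0.38 (SE 0.18, adjusted p = 0.999), AAR was higher in only 2 of 6 mice, and the value was 0.13 without mouse 23 and 0.22 without mouse 27. In the other direction the smallest p belonged to Ier5l, the region near Zswim4, Igf1r and Rusc1, which had log2 fold changes from -0.32 to -0.26 and adjusted p of 0.999. Without mouse 23 Ier5l was at -0.51, without mouse 30 Rusc1 was at -0.11, and without mouse 17 or 19 the region near Zswim4 was at -0.21.

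Input was compared in the same way as the background of the biopsy contrast. Over 42603 regions edgeR called 0 (0%), hence 0 of the 862 members, and 23 members had an unadjusted p under 0.05, 8 higher and 15 lower in AAR, beside 2.72% of all tested regions. DESeq2 called 0, with 13 members under 0.05. The start region of Midn, with the Input values given above, was lower in AAR in 5 of 6 mice (log2 fold change -0.27, SE 0.09, adjusted p = 1.00), and Brd2 likewise (-0.31, SE 0.11, adjusted p = 1.00). Dtl, a gene of DNA replication control, had the smallest p on the other side, at 0.56 (SE 0.18, adjusted p = 1.00). Leaving out mouse 23 raised the members under 0.05 to 53, of which 48 were lower in AAR, with 0 called. That is 6.15% of the members, beside 6.06% of all regions tested without this mouse.

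The Input-corrected difference between the biopsies was the interaction term over all 24 libraries. This term is the difference between the AAR and RM values that the rule limited. Its spread in the members thus partly follows from the choice. The term was fitted for 861 members among 42445 regions and called 0 (0%). An unadjusted p under 0.05 was seen in 28 members, 24 of them less depleted in AAR, beside 4.12% of all tested regions, and DESeq2 called 0 with 18 under 0.05. The median over the members was 0.10 on the log2 scale, with 548 above 0 and 313 below. Without mouse 23 the median was -0.01, with 415 above 0 and 445 below, and 21 had an unadjusted p under 0.05, 11 above 0 and 10 below. That is 2.44% of the members, beside 4.38% of all regions tested without this mouse. Leaving out any of the other 5 mice left the median between 0.07 and 0.16. The direction over the members thus rested on mouse 23, whose AAR and RM medians lie at opposite ends.

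The smallest interaction p among the members was at the Tns2 gene body (chr15:102100800-102103999). Tns2 H3K9me2 ran from 5.93 to 14.01 CPM with a median of 8.78 in AAR and from 1.45 to 7.13 with a median of 4.44 in RM. Its Input ran from 18.5 to 31.1 CPM with a median of 25.1 in AAR and from 26.0 to 32.5 with a median of 28.6 in RM. The H3K9me2 groups overlapped only slightly, and the interaction was 1.34 (SE 0.40, edgeR adjusted p = 1.00), above 0 in 5 of 6 mice. Kmt2d was above 0 in 6 of 6 mice (0.82, SE 0.28, adjusted p = 1.00), and Hnrnpk in 5 of 6 (0.93, SE 0.36, adjusted p = 1.00). Below 0 the smallest p belonged to Abhd8 (-0.92, SE 0.43, adjusted p = 1.00) and Ppp2r5a, a phosphatase subunit gene (-0.84, SE 0.41, adjusted p = 1.00). Abhd8 was at -0.46 without mouse 30, and Ppp2r5a at -0.55 without mouse 17. None of these single regions passed the adjustment over all regions.

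The contrasts on which the rule set its threshold were fitted too, and their outcome in the members is fixed by the choice. H3K9me2 was lower than Input in 798 of the 809 members that passed the filter in AAR, where 12.3% of all tested regions were lower, and in 810 of 810 in RM, where 19.9% were lower (edgeR, adjusted p of 0.05). These counts restate the choice of members and test nothing about them.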

How the data were processed

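H3K9me2 and Input libraries of AAR and RM biopsies from 6 mice were analysed. The authors deposited counts, whole numbers per region and library, over 53386 regions of mm10. The submitters' processing notes name Bowtie2 2.2.2, SICER 1.1 and edgeR without their roles; how regions were called and duplicates treated is not given in the sources used here. The deposited tables also hold the authors' log2 fold changes and p-values with FDR, whose headers name no tool, and these were not used. All log2 differences, CPM and tests were computed here from those counts, and totals cover the listed regions only. Each value was log2 of (count + 0.5) over the library total plus 1. Regions were judged eligible at a mean of 15 Input reads, also as neighbours. Fits used edgeR 4.0.16 in R 4.3.3 (TMM, filterByExpr, two-sided quasi-likelihood test, Benjamini-Hochberg at 0.05 over all tested regions). DESeq2 1.42.0 was the other tool. Library sizes kept all regions, and the fit was tested on simulated data. Members and lists were chosen with earlier results of these data known. Named regions were the 12 deepest, 3 on either side of the threshold, 4 of smallest p per direction and contrast, the 3 largest clusters, the widest, narrowest and most remote members, the extreme edges, and the lowest genes of each list, with further list genes and the Ehmt1, Ehmt2 and microRNA regions chosen after their values were seen. Libraries with the same mouse number share the animal. Deviations of same-numbered libraries from their group means correlated at -0.17 to 0.05 between the H3K9me2 libraries and at -0.08 to 0.03 between the Inputs. Between H3K9me2 and Input they correlated at -0.015 to 0.17 in AAR and at 0.003 to 0.08 in RM. The pairing of the biopsies thus rests on the mouse numbers and was not visible in these counts. Alternatives are given in the closing section. A few named regions are not reported here.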

Additional observations from a re-analysis of the deposited data

Results flagged for a closer look

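In 140 groups of 6 libraries, 4 for each of 35 named regions, the value farthest out was set against the range of the group. The test used is expected to flag about 1 in 20 groups by chance, and 4 were flagged. At Nufip2, mouse 23 had 8.36 CPM in AAR H3K9me2 and the other 5 mice had 0 to 3.003. At Hnrnpk, mouse 22 had 2.40 CPM in AAR H3K9me2 and the others 10.01 to 14.2. At Sdhc, mouse 17 had 16.0 CPM in RM H3K9me2 and the others 3.10 to 7.13. At Kmt2d, mouse 30 had 23.4 CPM in RM H3K9me2 and the others 7.74 to 13.1. Each flagged value is an H3K9me2 library, where the counts behind a region are few.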

How the results depend on the processing

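The number of depleted regions depended on the added count and on the minimum of reads. It was 284 with 2 added to each count in place of 0.5, 555 at a minimum of 30 Input reads, 2134 at a threshold of -0.75 and 128 at -1.5, against 862. TMM library sizes gave 849, median-of-ratios size factors 826, and edgeR's log2 fold changes 661, of which 622 were among the 862. Leaving out each mouse gave 787 to 911. Gene ends held 79.5% with a flank of 1 kb and 90.1% with 5 kb, gene bodies 17.1% and 8.24%, and 1.62% were intergenic with 5 kb. The median width was 3000 bases at 30 Input reads. Neighbours within 10 kb had medians of -0.49 in AAR and -0.57 in RM, and neighbours that overlap no listed region -0.31 in AAR and -0.32 in RM. For the neighbours within 50 kb, leaving out each mouse gave medians between -0.44 and -0.38 in AAR and between -0.47 and -0.43 in RM, with members redefined each time. The 3 biopsy contrasts called 0 members under each alternative run, leaving out each mouse included. With the mouse as replicate block they also called 0, H3K9me2 was lower than Input in 802 members in AAR and 810 in RM, and no other call changed. Immediate early genes with a depleted region numbered 5 to 29 over the rule's alternatives. Alternatives on neighbours with 5 Input reads, on list counts, on the deepest regions and on start-site shares were chosen after seeing the data. Depth limits all values, since a typical member has under 10 H3K9me2 reads per library.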
